A study of Mus musculus with 65 samples.

Results

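Polycomb repressive complex 2 (PRC2) was followed through 7 genes taken by name: Ezh2, Eed, Suz12, Jarid2, Rbbp4, Rbbp7 and Mtf2. All 7 were among the 10407 genes measured. The measurements were messenger RNA of 65 single cells of CD1 wild-type mouse embryos, sampled as neural progenitors. They were collected by Patch-seq, which draws up 1 cell's content through a patch pipette. Markers of other cell types were also read, as given below, so not every cell can be called a progenitor from its RNA. There were 19 progenitors of embryonic day 15 (E15) placed in a host brain of embryonic day 12, called transplanted cells here, 26 FlashTag cells of E15 and 20 FlashTag cells of E12. FlashTag is a dye that marks progenitors dividing at the ventricular surface. The labels name no animal, litter, host or time spent in the host, so each group counted as 1 sample. No test between groups was made, and spreads are over cells.

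PRC2 methylates histone H3 at K27, a mark of silenced genes. Ezh2 carries the methyltransferase domain, Eed binds the finished mark and Suz12 holds the complex together. Rbbp4 and Rbbp7 bind histones, and Jarid2 and Mtf2 are accessory subunits that help the complex to reach its targets. In mouse cortical progenitors, loss of Ezh2 is known to change the timing of neurogenesis.

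Levels are read counts scaled to the total of the genes measured (CPM). Unless a per-cell value is named, reads of a group were added first, and ranges in parentheses are exact 95% Poisson, binomial or conditional binomial limits. They cover counting error only, because the reads come from PCR without molecular identifiers and are not separate molecules. Reads per cell ranged over 22358 to 3622411 with a median of 166134 in transplanted cells. The range was 11449 to 4560871 at E15 (median 998630), and 10928 to 1635767 at E12 (median 148824). More than 8000 genes were detected in 5 transplanted, 11 E15 and 0 E12 libraries, called many-gene libraries below. The sum of all 19 apical progenitor markers had a median per cell of 5752 CPM in transplanted, 4598 CPM in E15 and 10010 CPM in E12 cells. In the many-gene libraries it was 2532 CPM in transplanted and 2014 CPM in E15 cells, and in the others 7596 CPM in transplanted and 18586 CPM in E15 cells, so E15 cells were lowest with all libraries and highest without these. The many-gene libraries were higher in all 14 neuron markers summed, with a median of 7942 against 2612 CPM in transplanted and 6620 against 1589 CPM in E15 cells. The 12 ventral interneuron markers summed to 3025 against 662 CPM in transplanted and 4104 against 589.6 CPM in E15 cells. For 13 microglia and macrophage genes the many-gene libraries were lower in transplanted cells (29.5 against 374 CPM) and higher in E15 cells (3022 against 119 CPM). These libraries stood apart from the rest of their groups in these markers, so main results are also given without them.

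The catalytic core did not move as 1 unit. Ezh2 and Eed were somewhat higher in transplanted than in E15 cells, and Suz12 was lower. The E15 and E12 groups had near-equal summed levels of Ezh2 and Eed with all cells, but not without E12 replicate 5, the deepest E12 library (log2 ratios -0.56 and -0.53 in E15 over E12 cells). In every group at least 1 cell had no read of any given member, so the groups overlapped for all 7 genes. The plot of the members by cell shows this overlap.

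**Figure D1:**
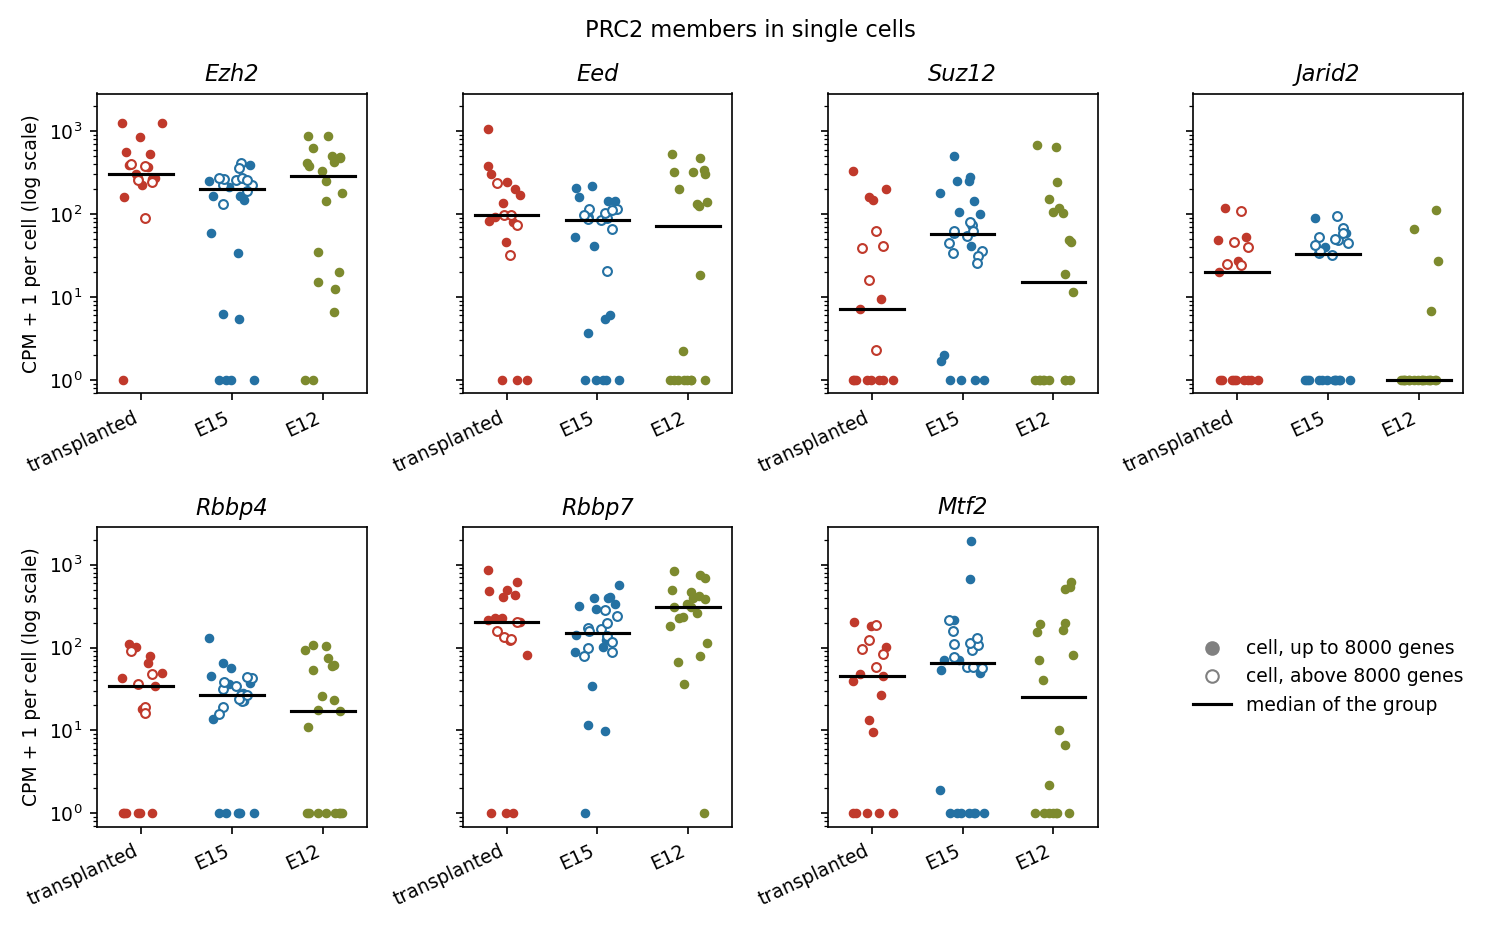
Level of each PRC2 member in each cell (CPM + 1, log scale) for transplanted, E15 and E12 cells. Points are cells, open points are libraries above 8000 genes and bars are medians. Cells without a read sit at 1, and the Suz12 bars lie at medians of 6.21 CPM in transplanted, 55.7 CPM in E15 and 14.1 CPM in E12 cells before 1 is added.

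Ezh2, the methyltransferase (chromosome 6, 47530139 to 47595341, minus strand, GRCm38), was at 334 CPM in transplanted cells (324 to 344), 239.8 CPM in E15 cells (235 to 245) and 247 CPM in E12 cells (234 to 262). The lowest, median and highest cells had 0, 305 and 1265 CPM in the transplanted group, 0, 200.1 and 409 CPM at E15, and 0, 290.3 and 867 CPM at E12. The highest transplanted and E12 cells thus lay above every E15 cell, while the lowest cells of all groups were at 0. The log2 ratio was 0.47 in transplanted over E15 cells, a ratio of 1.39 (1.34 to 1.44), and stayed between 0.24 and 0.62 when single cells were left out. It was higher in 6 of the 7 pools that hold both groups. Over E12 cells it was 0.43, and -0.08 without E12 replicate 5, and it was higher in 3 and lower in 4 of 7 pools. In E15 over E12 cells it was -0.05 (ratio 0.969, 0.913 to 1.03), and -0.56 without that library. It was lower in 5 of 8 pools, while the mean of the log2 ratios within pools was 0.41. That mean holds a value of 7.79 from pool H, where the 1 E12 cell had 10928 reads and none of Ezh2. In the other pools the values ran from -1.81 to 1.12.

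Weighting each cell equally widened the difference between the transplanted and E15 groups. Mean Ezh2 was 423 ± 345 CPM in transplanted cells (SD, n = 19 cells), 175 ± 128 CPM in E15 cells (SD, n = 26 cells) and 301 ± 281 CPM in E12 cells (SD, n = 20 cells), so the means differed by less than the SD of the transplanted cells. The log2 ratio of the means was 1.27 in transplanted over E15 cells. Without the many-gene libraries, Ezh2 was at 489.9 CPM in transplanted cells, 203 CPM in E15 cells and 247 CPM in E12 cells, and the transplanted over E15 log2 ratio was again 1.27. The deposited values, which are log10 residuals with 0 at the mean of all 65 cells, averaged 0.25 in transplanted, -0.22 in E15 and 0.05 in E12 cells. They were above 0 in 14 of 19 transplanted, 9 of 26 E15 and 13 of 20 E12 cells.

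Eed, which reads the methyl mark (chromosome 7, 89954654 to 89980983, minus strand), was at 125.5 CPM in transplanted cells (119 to 132), 98.7 CPM in E15 cells (95.6 to 102) and 96.1 CPM in E12 cells (87.7 to 105). Its lowest, median and highest cells had 0, 95.1 and 1053 CPM in the transplanted group, 0, 84.6 and 219 CPM at E15, and 0, 71.4 and 534 CPM at E12. The groups overlapped, and E15 cells again had the lowest maximum. The log2 ratio of 0.34 in transplanted over E15 cells lay between 0.10 and 0.57 over left-out cells, and was 1.21 with cells weighted equally. Over E12 cells it was 0.38, and -0.19 without E12 replicate 5. Its E15 over E12 value was 0.04, with -0.53 without that library and -0.94 with cells weighted equally, and its sign turned under 3 of 12 alternatives. That library held 2 reads of Eed.

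Suz12, the scaffold subunit (chromosome 11, 79993106 to 80034123, plus strand), had the opposite order. It was at 29.0 CPM in transplanted cells (26.1 to 32.1), 61.6 CPM in E15 cells (59.1 to 64.2) and 97.9 CPM in E12 cells (89.4 to 107). The lowest, median and highest cells had 0, 6.21 and 331 CPM in the transplanted group, 0, 55.7 and 507 CPM at E15, and 0, 14.1 and 687 CPM at E12. More than 1 read-free cell stood in each group, and the median cell was highest at E15 although the sum was highest at E12. E12 replicate 5 held 51.2% of the E12 reads of Suz12. The sum at E12 was 71.4 CPM without it.

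In transplanted over E15 cells the log2 ratio of Suz12 was -1.06, a ratio of 0.471 (0.421 to 0.526). Leaving out single cells gave -1.30 to -0.83, the weaker end without transplanted replicate 19, and the value was -1.71 without the many-gene libraries. With cells weighted equally it was -0.79, on thinned reads -0.68, and with TMM factors -0.996, just under 2-fold. Suz12 was lower in 4 and higher in 3 of 7 pools. In transplanted over E12 cells the log2 ratio was -1.72, with -1.27 without E12 replicate 5. The E15 over E12 log2 ratio was -0.66 (-0.21 without E12 replicate 5), and it turned to 0.63 on the deposited values.

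**Figure D2:**
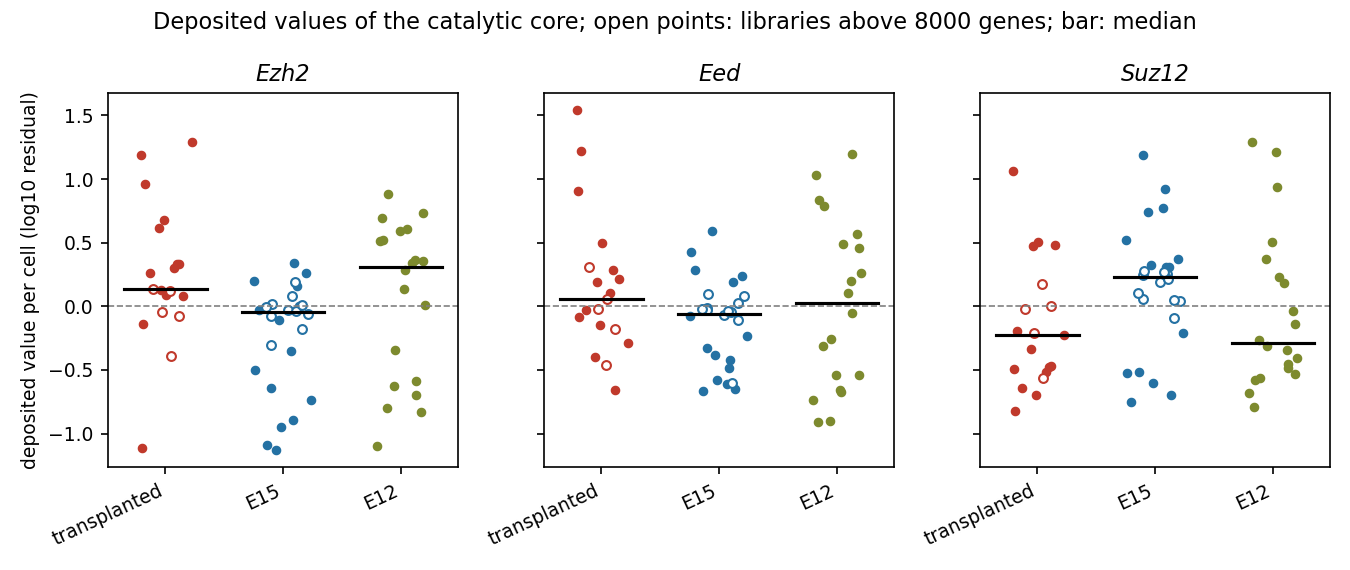
Deposited value per cell of Ezh2, Eed and Suz12, a log10 residual centred on all 65 cells, for transplanted, E15 and E12 cells. Points are cells, open points are libraries above 8000 genes and bars are medians. Suz12 was above 0 in 6 of 19 transplanted, 19 of 26 E15 and 7 of 20 E12 cells.

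The starts of Ezh2 and Suz12 are printed because their summed levels differed in opposite directions between transplanted and E15 cells and because these were the members whose window held an E2F-type motif. The windows run from 250 bases before to 50 bases after the start and come from RefSeq (build GRCm38.p6). Capitals mark the motif, for which TTTCCCGC, TTTGGCGC, TTTGCCGC and TTTCGCGC were searched on both strands. A match was present in 2 of the 9 windows of the 7 members and in 744 of all 32851 windows (2.26%). It is a description of the letters and shows no binding.
Ezh2, chr6:47594981-47595280, minus strand: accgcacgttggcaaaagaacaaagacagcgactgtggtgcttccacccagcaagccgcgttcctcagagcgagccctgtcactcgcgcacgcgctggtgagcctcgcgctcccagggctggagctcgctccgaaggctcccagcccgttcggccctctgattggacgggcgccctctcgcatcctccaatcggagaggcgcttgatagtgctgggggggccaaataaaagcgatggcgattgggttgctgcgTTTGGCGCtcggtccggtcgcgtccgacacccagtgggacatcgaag
Suz12, chr11:79992856-79993155, plus strand: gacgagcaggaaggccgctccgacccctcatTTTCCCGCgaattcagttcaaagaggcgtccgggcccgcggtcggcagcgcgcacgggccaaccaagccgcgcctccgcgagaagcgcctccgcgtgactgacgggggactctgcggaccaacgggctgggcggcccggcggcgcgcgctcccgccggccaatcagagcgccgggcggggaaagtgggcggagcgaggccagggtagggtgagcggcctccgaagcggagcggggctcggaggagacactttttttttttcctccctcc

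Rbbp7, a histone-binding subunit shared with other complexes (chromosome X, 162760402 to 162779092, plus strand), was at 226 CPM in transplanted cells (218 to 235), 194 CPM in E15 cells (189.7 to 199) and 306 CPM in E12 cells (291 to 322). Per cell the lowest, median and highest values were 0, 202 and 861 CPM in the transplanted group, 0, 149 and 568 CPM at E15, and 0, 306 and 828 CPM at E12. E12 cells had the highest median, and the groups overlapped. In E15 over E12 cells the log2 ratio was -0.65, between -0.81 and -0.53 over left-out cells, and negative in all 12 alternative scalings and filters. It was 0.22 in transplanted over E15 cells, and -0.16 without transplanted replicate 19, which held 39.0% of the transplanted reads of Rbbp7. Over E12 cells it was -0.44, and 0.13 without the many-gene libraries.

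Rbbp4, its paralog (chromosome 4, 129307100 to 129335370, minus strand), was at 50.8 CPM in transplanted cells (47.0 to 54.9), 33.0 CPM in E15 cells (31.2 to 34.9) and 29.1 CPM in E12 cells (24.6 to 34.3). The median cell had 33.6 CPM in the transplanted group, 25.6 CPM at E15 and 16.3 CPM at E12. The order of the sums was the order of the medians, while the groups overlapped. Log2 ratios were 0.61 in transplanted over E15, 0.78 in transplanted over E12 and 0.17 in E15 over E12 cells. In the last of these the sign turned under 3 of 12 alternatives, among them cells weighted equally, and it was -0.10 without E12 replicate 5. Rbbp4 and Rbbp7 shared no stretch of 50 bases in the last 1000 bases of their transcripts. Rbbp7 shared 43 of 951 such stretches with the processed pseudogene Gm6382, so some of its reads are uncertain. The 3' ends of both are also overlapped on the other strand, by Sync over 1460 bases of Rbbp4 and by Txlng over 174 bases of Rbbp7. Reads there are uncertain because no strand setting is given in the sources used here.

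Of the accessory subunits, Jarid2 was read in fewer cells than Mtf2 in each group. Jarid2, which binds the complex and nucleosomes (chromosome 13, 44729474 to 44921643, plus strand), was read in 10 of 19 transplanted, 14 of 26 E15 and 4 of 20 E12 cells. Its sums were 42.7 CPM in transplanted (39.2 to 46.5), 37.9 CPM in E15 (36.0 to 39.9) and 29.7 CPM in E12 cells (25.1 to 34.96). E12 replicate 5 held 72.1% of the E12 reads of Jarid2, and the sum was 12.4 CPM without it. The E15 over E12 log2 ratio was 0.34, with 1.54 without that library and -0.96 without the many-gene libraries, so its sign depended on the libraries used. In transplanted over E15 cells it was 0.17 (-0.03 without transplanted replicate 4, 1.36 without the many-gene libraries), and in transplanted over E12 cells 0.51 (1.70 without E12 replicate 5).

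Mtf2, which links the complex to unmethylated DNA (chromosome 5, 108065674 to 108109004, plus strand), was at 69.4 CPM in transplanted cells (64.9 to 74.2), 86.6 CPM in E15 cells (83.7 to 89.7) and 109 CPM in E12 cells (100.2 to 119). The median cell had 43.8 CPM in the transplanted group, 63.4 CPM at E15 and 24.6 CPM at E12, and 1 E15 cell reached 1945 CPM. The groups overlapped and the order of the sums was not that of the medians. Log2 ratios were -0.32 in transplanted over E15, -0.65 in transplanted over E12 and -0.33 in E15 over E12 cells. Without the many-gene libraries they were -1.55, -2.28 and -0.72 in the same order. As means of ratios within pools they were -1.04, 0.52 and 1.25, so those over E12 turned. Pool H, whose 1 E12 cell had no read of Mtf2, entered these 2 means with 6.39 and 5.79. The E15 over E12 value also turned with cells weighted equally (0.34) and without E12 replicate 2 (0.19), which held 35.2% of the E12 reads of Mtf2. The last 2639 bases of Mtf2 overlap Tmed5 on the other strand (108106366 to 108109004). Tmed5 was at 13.4 CPM in transplanted, 28.3 CPM in E15 and 61.7 CPM in E12 cells, and reads of these ends are uncertain in the same way.

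**Figure D3:**
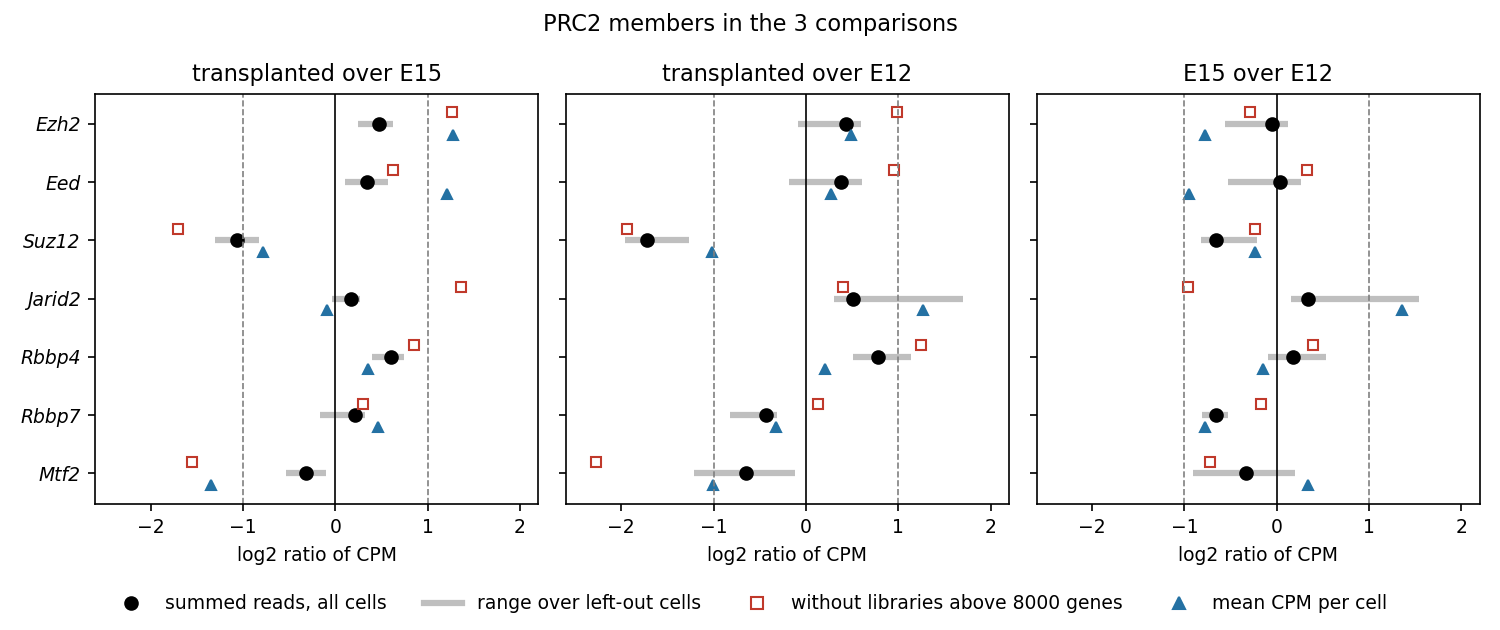
Log2 ratio of CPM of each PRC2 member in the 3 comparisons. Circles are summed reads over all cells, grey bars the range when single cells are left out, squares the values without libraries above 8000 genes, triangles means of CPM per cell, and dashed lines mark 2-fold. The Suz12 circles lie at -1.06 in transplanted over E15 and -1.72 in transplanted over E12 cells, and the Ezh2 square and triangle in transplanted over E15 cells both lie at 1.27.

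Against all genes, 1 of 7 members was 2-fold or more lower in transplanted than in E15 cells (Suz12) and 0 were 2-fold or more higher. Of 10163 genes with at least 5 CPM in either group, 11.8% were that much lower and 4.71% that much higher. In transplanted over E12 cells 1 of 7 members was lower (Suz12, 24.7% of 9931 genes) and 0 were higher (22.9%). In E15 over E12 cells 0 of 7 members passed 2-fold in either direction, while 25.3% of 10193 genes were higher and 20.3% lower. These counts changed with single libraries. In transplanted over E15 cells Suz12 lay close to the limit. There 0 members passed without transplanted replicate 6, and likewise 0 without transplanted replicate 19, as examples of single cells. Without E12 replicate 5, Jarid2 passed higher and Suz12 and Mtf2 lower in transplanted over E12 cells, and Jarid2 passed higher in E15 over E12 cells.

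Median log2 ratios over the 7 members were 0.22 in transplanted over E15, 0.38 in transplanted over E12 and -0.05 in E15 over E12 cells, beside -0.08, -0.09 and -0.03 over all genes. Without the many-gene libraries they were 0.62, 0.40 and -0.23, beside -0.13, -0.16 and -0.01 over all genes. Both comparisons with transplanted cells use the same transplanted libraries, and those with E15 or E12 share these, so the 3 sets of values are not independent. Without the many-gene libraries Ezh2 (1.27) and Jarid2 (1.36) passed 2-fold higher in transplanted over E15 cells, and Suz12 (-1.71) and Mtf2 (-1.55) passed 2-fold lower. There 18.7% of 9799 genes were higher and 28.0% lower. In transplanted over E12 cells without these libraries Rbbp4 (1.24) was higher, and Suz12 (-1.94) and Mtf2 (-2.28) were lower. Of all genes, 22.5% were higher and 29.8% lower there. In E15 over E12 cells 0 members passed, beside 24.2% and 21.6%. The transplanted values without these libraries lean on replicate 19, which held 2584656 of the 4639870 reads left. Member values with that cell also left out are not given.

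Detection followed depth in part. Ezh2 was read in 18 of 19 transplanted (94.7%, 74.0 to 99.9), 22 of 26 E15 (84.6%, 65.1 to 95.6) and 18 of 20 E12 cells (90.0%, 68.3 to 98.8). Suz12 was read in 11 of 19 transplanted (57.9%, 33.5 to 79.7), 22 of 26 E15 (84.6%, 65.1 to 95.6) and 11 of 20 E12 cells (55.0%, 31.5 to 76.9). At 28614 reads per cell, Suz12 was read in 7 of 17 transplanted, 16 of 24 E15 and 8 of 17 E12 cells, and the limits of the 3 groups overlapped. Ezh2 was then read in 16 of 17 transplanted, 18 of 24 E15 and 15 of 17 E12 cells. A core set, taken as Ezh2, Eed and Suz12 with Rbbp4 or Rbbp7, was read in 11 of 19 transplanted (57.9%), 19 of 26 E15 (73.1%) and 7 of 20 E12 cells (35%). At equal depth these were 7 of 17 (41.2%), 12 of 24 (50%) and 4 of 17 cells (23.5%). The median cell still had 4235 genes in the transplanted group, 5227 at E15 and 3042 at E12 at that depth, and the part of this in the core counts was not tested.

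**Figure D4:**
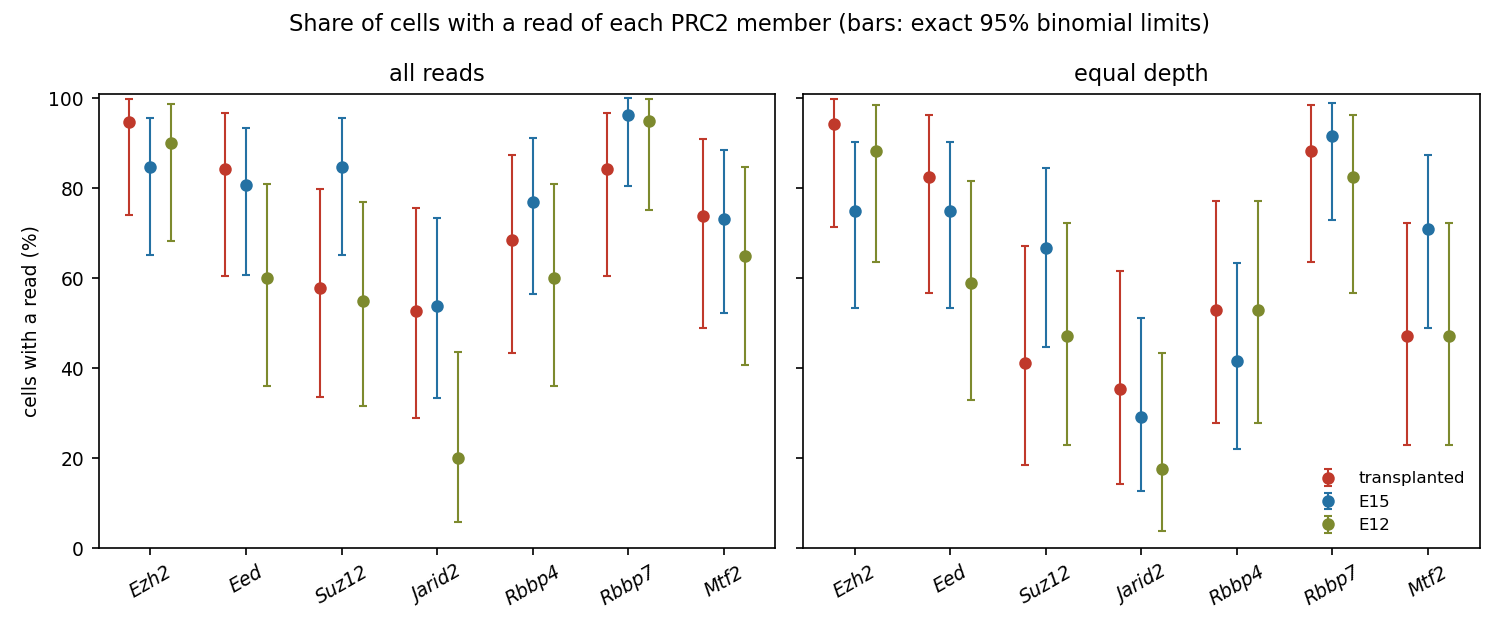
Share of cells with a read of each PRC2 member in transplanted, E15 and E12 cells, with all reads and at 28614 reads per cell. Points are shares and bars exact 95% binomial limits. The shares of Suz12 at equal depth were 41.2% in transplanted, 66.7% in E15 and 47.1% in E12 cells.

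Across the 65 cells, with group means removed, members were only weakly related to each other. The 21 pairs had Pearson r of -0.19 to 0.28 in deposited values (median 0.05), and 1 pair, Ezh2 and Rbbp7, was over 0.2. These points share libraries and depth, and r is a description here. Many cells had no read of a member (37 of 65 cells for Jarid2). No r over pairs of other genes is given, so low values cannot be called particular to PRC2. Genes most like Ezh2 among 5191 genes read in at least 50% of cells were Upf2, of nonsense-mediated decay (r = 0.52), Timeless, of the replication fork (0.51), and Rbm22, of splicing (0.50). Those most like Suz12 were Usp48, a deubiquitinase (0.52), Crebbp, an acetyltransferase (0.50), and Fnbp1l (0.50). Eed was most like Clp1 (0.51), Jarid2 like Chd8 (0.51), Rbbp4 like Golga7 (0.57), Rbbp7 like Wdr89 (0.45) and Mtf2 like Tmed5 (0.52), the gene whose end it overlaps. Each is the highest of 5191 values over 65 cells, so its size rests in part on that choice. By Spearman correlation Upf2, Clp1 and Golga7 kept rank 1, and Chd8 and Tmed5 were at rank 2. Usp48 was then at rank 4 and Wdr89 at rank 15.

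Other PRC2 subunits were represented by 4 of 9 genes. Aebp2, a zinc finger partner, was at 23.2 CPM in transplanted, 25.6 CPM in E15 and 68.0 CPM in E12 cells, a log2 ratio of -1.51 in transplanted over E12 and -1.38 in E15 over E12 cells. E12 replicate 17 held 48.5% of the E12 reads of Aebp2, and without it these were -0.76 and -0.63. Lcorl, a partner of the same class as Lcor, was at 99.8 CPM in transplanted, 47.4 CPM in E15 and 86.2 CPM in E12 cells (49.5 CPM without E12 replicate 17), and its log2 ratio of 1.06 in transplanted over E15 cells was 0.72 without transplanted replicate 19. Lcor had no read in the 20 E12 cells and was at 23.3 CPM in transplanted and 12.4 CPM in E15 cells. These levels lay 38.3-fold and 20.4-fold above a floor of 3 counts over all E12 cells. The floor treats reads as separate molecules, so it sets no lower limit to a difference between groups of cells. Ezh1, the second methyltransferase, was at 6.61 CPM in transplanted, 10.6 CPM in E15 and 7.49 CPM in E12 cells (1.25 CPM without E12 replicate 13).

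PRC1, which ubiquitylates histone H2A and reads the mark of PRC2, was represented by 22 of 26 genes. In transplanted over E15 cells 0 were 2-fold higher and 4 lower, beside 4.71% and 11.8% of all genes, among them Scmh1 (15.6 against 50.8 CPM) and Bmi1, a core RING partner (44.7 against 130.0 CPM, log2 ratio -1.52). With the many-gene libraries left out, 4 were higher and 7 lower, beside 18.7% and 28.0% of genes. The log2 ratios were then -3.65 for Scmh1 and -3.14 for Bmi1. Scmh1 was left at 1.72 CPM, with a read in 1 of 14 transplanted cells, against 33.3 CPM and 7 of 15 E15 cells. In E15 over E12 cells 4 of 22 passed 2-fold higher and 5 lower (median -0.21), beside 25.3% and 20.3% of genes, and without E12 replicate 5 it was 4 and 2. The E15 over E12 shares of PRC1 genes lay near those of all genes. Kdm2b, which brings PRC1 to CpG islands, was at 19.5 CPM in E15 cells and had no read in E12 cells. That is 32.1-fold above the same floor of 3 counts, which again sets no lower limit. The scaffold Phc2 was at 310 CPM in transplanted, 381 CPM in E15 and 445 CPM in E12 cells.

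COMPASS and MLL genes, whose complexes methylate H3K4, had medians below 0 over E12 in both groups of E15 origin, with members on either side. In E15 over E12 cells 7 of 15 were 2-fold lower and 0 higher (median -0.93, against 20.3% and 25.3% of all genes, with 4 of 15 above 0), and in transplanted over E12 cells 8 of 15 were lower and 1 higher (median -1.003, against 24.7% and 22.9% of all genes, with 3 of 15 above 0). Kmt2b, a methyltransferase, was at 9.04 CPM in transplanted, 7.47 CPM in E15 and 71.6 CPM in E12 cells, and Kmt2d at 14.1, 15.5 and 75.3 CPM in the same order. E12 replicate 5 held 66.1% of the E12 reads of Kmt2b, and the E12 level was 36.3 CPM without it. Dpy30, a shared core subunit, had the opposite order, at 362 CPM in transplanted cells (286 CPM without transplanted replicate 19), 298 CPM in E15 and 220.3 CPM in E12 cells, so that without this replicate E15 cells were highest. Without the many-gene libraries the E15 over E12 count was again 7 of 15 lower (median -0.92), beside 21.6% of all genes. Without E12 replicate 5 it was 5 of 15 (median -0.78).

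**Figure D5:**
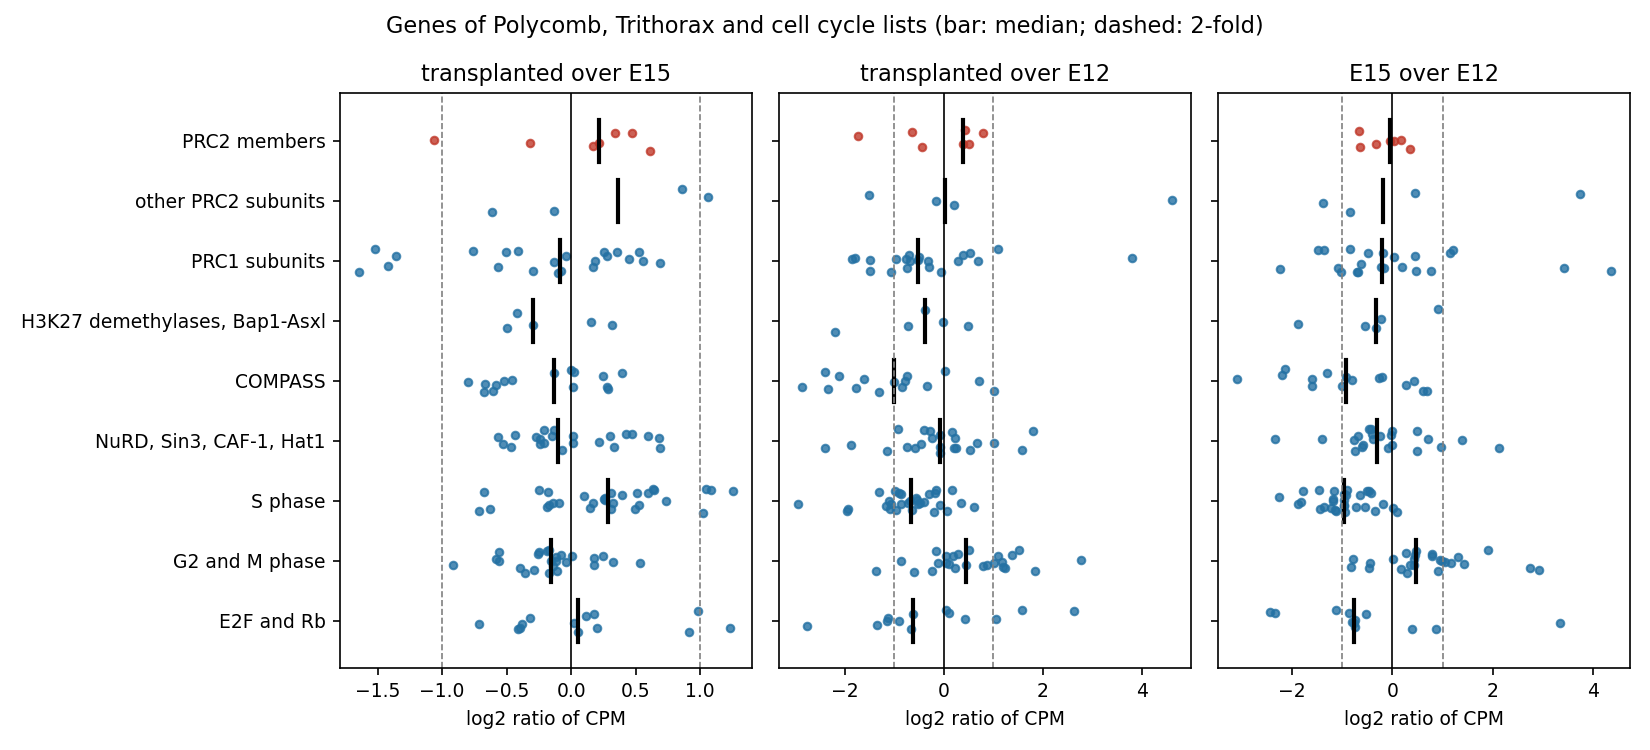
Log2 ratio of CPM of single genes (points) of 9 lists in the 3 comparisons, for genes with at least 5 CPM in either group. Black bars are medians of the list and dashed lines mark 2-fold. PRC2 medians lie at 0.22, 0.38 and -0.05, and points of genes without an E12 read rest on the pseudocount of 1 CPM.

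A list of 5 genes held H3K27 demethylases and Bap1 with its partners Asxl1 and Asxl2. In transplanted over E15 cells 0 of the 5 passed 2-fold, beside 4.71% of all genes higher and 11.8% lower. Without the many-gene libraries 1 was higher and 2 lower, beside 18.7% and 28.0%. Kdm6b, an H3K27 demethylase, was at 55.4 CPM in transplanted, 78.4 CPM in E15 and 91.5 CPM in E12 cells. Its log2 ratio in transplanted over E15 cells was -0.49, and -1.40 without the many-gene libraries. Bap1, which removes ubiquitin from H2A, was at 156 CPM in transplanted, 125 CPM in E15 and 157 CPM in E12 cells. Of 22 genes of complexes that also hold Rbbp4 or Rbbp7 (NuRD, Sin3, CAF-1 and Hat1), 0 passed 2-fold in transplanted over E15 cells. Of all genes, 4.71% were higher and 11.8% lower there. In E15 over E12 cells 2 were higher and 2 lower, beside 25.3% and 20.3% of all genes. In libraries up to 8000 genes, 4 of the 21 with enough reads were higher and 2 lower in transplanted over E15 cells. There 18.7% of all genes were higher and 28.0% lower. Without E12 replicate 5 the number lower in E15 over E12 cells was 5. Sin3a, a corepressor scaffold, was at 18.6 CPM in transplanted, 19.6 CPM in E15 and 103.0 CPM in E12 cells (69.0 CPM without E12 replicate 5).

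The S phase and G2/M lists had medians of opposite sign with all cells, in transplanted over E15 and in E15 over E12 cells. In transplanted over E15 cells, 21 S phase genes of 30 lay above 0 on the log2 scale and 9 below (median 0.29). Of all 10163 genes with enough reads, 4515 lay above 0. Past 2-fold higher were 4 of the S phase genes, beside 4.71% of all genes. Mcm2, a helicase subunit, was at 254 against 119 CPM (132 against 119 CPM without transplanted replicate 19). Without that replicate 10 of the S phase genes lay above 0 and 20 below, 0 were past 2-fold higher and the median was -0.08, so the direction of the list rested on 1 cell. The Ezh2 log2 ratio was 0.24 without it. In E15 over E12 cells 2 were higher and 28 lower (median -0.96), while Ezh2 had a log2 ratio of -0.05. Of 25 G2/M genes 6 lay above 0 and 19 below in transplanted over E15 cells (median -0.16, and 0.48 without the many-gene libraries). In E15 over E12 cells 21 lay above 0 and 4 below. There 7 were past 2-fold higher, beside 25.3% of all genes. The E15 over E12 median of the G2/M list was 0.48 with all libraries and 0.12 in those up to 8000 genes. Pearson r of Ezh2 with the mean of the S phase list was 0.30 over 65 cells and with the E2F and Rb list 0.33, and that of Suz12 with the E2F and Rb list was 0.40. Markers of other cells also differed. Between E15 and E12 cells, 8 of 14 neuron markers and 12 of 12 ventral interneuron markers were 2-fold higher at E15 (medians 1.96 and 2.97). Of 19 apical progenitor markers 12 were lower and 2 higher (median -1.24), beside 25.3% of all genes higher and 20.3% lower. Without the many-gene libraries, 5 of 14 neuron and 5 of 10 ventral interneuron markers were 2-fold higher (medians 0.91 and 0.88). Then 5 of 19 apical progenitor markers were lower and 4 higher (median -0.48), beside 24.2% of all genes higher and 21.6% lower. In transplanted over E12 cells with all libraries, 8 neuron and 11 ventral interneuron markers were higher and 13 apical progenitor markers lower (medians 1.73, 3.38 and -1.46). There 22.9% of all genes were higher and 24.7% lower. Without the many-gene libraries the marker counts were 7, 9 and 10 (medians 0.82, 2.79 and -1.08), beside 22.5% and 29.8% of all genes. Neuron markers summed per cell to 226 to 9538 CPM in transplanted, 235 to 12061 CPM in E15 and 298 to 7846 CPM in E12 cells, and ventral interneuron markers to 0 to 3389.7 CPM, 7.92 to 5469.8 CPM and 0 to 2234 CPM in the same order, with Gsx2 at 0 in E12 cells. Erythroid genes differed too, with a median per cell of 4698 CPM in transplanted, 116 CPM in E15 and 2946 CPM in E12 cells for 5 of 8 genes measured, and microglia genes with 268, 981 and 35.3 CPM in the same order for 13 of 13. The part of cell cycle phase and of other cells' RNA in the member values was not tested.

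Of 12 known cortical Polycomb targets 2 were measured. Fezf2, a factor of deep-layer neurons, was at 19.3 CPM in transplanted, 19.6 CPM in E15 and 63.7 CPM in E12 cells. Single cells weighed on each value, which was 10.4 CPM without transplanted replicate 18, 5.36 CPM without E15 replicate 10 and 35.7 CPM without E12 replicate 9. Cdkn1c, a cell cycle inhibitor, was at 108 CPM in transplanted cells, 78.3 CPM in E15 cells and 179.7 CPM in E12 cells. Its log2 ratio in transplanted over E15 cells was 0.46, and -0.05 without transplanted replicate 14. Over E12 cells the E15 value was -1.19, and -0.66 without E12 replicate 9.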

How the data were processed

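Single-cell libraries used a 3' SMART-Seq kit and Nextera XT, per the labels' protocols. Mapping was with STAR (mm10) and counting with HTSeq, per the submitters' processing notes, with versions and strand setting not given in the sources used here. The authors deposited log10 values. Judged from the values, these are log10 of 1 plus scaled counts, centred per gene over 65 cells, with 2 further directions over cells regressed out. These directions took 74.5% of the variance of genes detected per cell and 41.3% of that of log10 reads. Of the variance of group membership they took 24.2% for E12, 8.81% for E15 and 3.31% for transplanted cells.

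Whole read counts were recovered from the cells at 0 (9935 genes, all 7 members) or by a search for whole numbers (472 genes). Each of the 356667 values above 0 came out whole to within 0.01. The value of 1 read in a cell was the largest step that makes its values whole, a rule adopted after a first version halved counts of some cells on simulated data. Real counts were the same under both versions. Genes have a read in at least 6 cells.

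Group sums were scaled to CPM, log2 ratios used a pseudocount of 1 CPM, and counts of genes past 2-fold needed 5 CPM in either group. Thinning took 28614 reads per cell and left out shallower cells. Pools A to H come from the labels, which do not define them. Loci are GRCm38 in GENCODE vM21. Named were the members, other PRC2 and PRC1 genes, per further list up to 2 genes of highest CPM and up to 2 of largest log2 ratio in a comparison, and the 3 genes most like each member by r. Members, lists and limits were chosen with earlier results of these data known. Alternatives weighted cells equally, used deposited values or thinned reads, left out libraries, cells or pools, took ratios within pools, or changed factors (TMM, median of ratios, own code), totals, filters and pseudocounts. Leaving out single cells for the further lists was added after seeing the data. Software was NumPy 2.4.6 and SciPy 1.17.1 on Python 3.11.15.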

Additional observations from a re-analysis of the deposited data

How the results depend on the processing

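No paired analysis was possible because the labels carry no replicate numbers that pair cells. The labels' pools A to H are shared by the groups, except that pool F holds no transplanted cell. Ratios within pools were taken as values without a test. The labels also carry IL numbers, which they do not define. E12 cells have IL01 to IL07, E15 cells IL01 to IL12 and transplanted cells IL05 to IL12. The IL numbers thus run partly with the groups, and their part in the differences was not tested. When single cells were left out, the median log2 CPM ratio over the PRC2 members, transplanted over E15 ran from 0.09 to 0.32, the median log2 CPM ratio over the PRC2 members, transplanted over E12 from -0.19 to 0.55, and the median log2 CPM ratio over the PRC2 members, E15 over E12 from -0.53 to 0.13. The second of these turned to -0.28 without libraries above 7000 genes and to -0.42 without pool E, and the third to 0.33 as a mean of ratios within pools. In the first no alternative turned the sign. Pool H has 1 E12 cell, replicate 3, with 10928 reads and none of Ezh2, Eed, Suz12, Jarid2 or Mtf2. Ratios over E12 within that pool rest on this cell. At 28614 reads per cell the share of cells with a read moved to 47.1% for Mtf2 in transplanted cells (73.7% with all reads), to 29.2% for Jarid2 in E15 cells (53.8%) and to 41.7% for Rbbp4 in E15 cells (76.9%). In transplanted over E15 cells the sign of 6 of the 7 members was the same under all 12 scalings and filters, and that of Jarid2 under 10. In transplanted over E12 cells it was the same under all 12 for 4 members (Ezh2, Eed, Suz12 and Rbbp4) and in E15 over E12 cells for 1 (Rbbp7). The cause of these changes was not tested. E12 replicate 5 held 51.2% of the E12 reads of Suz12 and 72.1% of those of Jarid2, and with 1 sample a group no spread between animals can be given.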
